A study of Rattus norvegicus with 8 samples.

Results

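Collagens are the main structural proteins of the extracellular matrix, and each is a triple helix of chains that separate genes encode. The genes described here are all those whose rat symbol names a collagen chain, found by matching the RefSeq accession of each array probe to a RefSeq gene table. The table lists 44 such genes; 23 of them had a matched probe (31 probes), and 21 genes (27 probes) were measured, out of 25097 features in all. A probe counted as measured when the scanner software marked it well above background on both arrays of any group. The measured genes are 7 chains of fibril-forming collagens, 2 of basement membrane collagen, 3 of the fibril-associated collagens with interrupted triple helices (FACIT) and 9 others. Col11a1 and Col9a1 had probes that did not pass this filter. The 21 genes without a matched probe were Col4a2, Col4a3, Col4a5, Col4a6, Col5a2, Col6a1, Col6a3, Col6a4, Col6a6, Col8a2, Col9a3, Col10a1, Col12a1, Col17a1, Col19a1, Col20a1, Col22a1, Col24a1, Col25a1, Col27a1 and Col28a1.

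Expression was measured in lung tissue of male rats with 8 1-colour arrays, 2 in each of 4 groups. The naive group breathed normal air, and the smoke group spent 12 weeks in a cigarette smoke chamber. The EV and MSC groups had the same smoke exposure and then, at week 13, an intratracheal dose of mesenchymal stem cells from human umbilical cord (MSC) or of the extracellular vesicles isolated from such cells (EV). No group received a sham dose, and none received cells or vesicles without smoke. The labels do not say whether the 2 samples of a group came from separate animals, so p-values measure only the spread between these samples, which may be technical. The probes were designed for rat genes, and how far they bind RNA of the human cells was not tested. In whole tissue, fewer cells of a type and less RNA per cell cannot be told apart.

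A level here is the log2 signal of a probe minus the 75th percentile of its array, so a difference is read against the rest of the array. Smoke arrays were bright: their 75th percentile exceeded the naive one 6.49 times (geometric means), while the spike-in control RNAs gave 0.833 times the naive signal. Scaling to the spike-ins instead of the percentile moves the median of all features from -0.62 to 2.34 in smoke against naive, from 0.55 to -1.93 in EV against smoke and from 0.74 to -3.28 in MSC against smoke. Directions below hold on the percentile scale. The spike-in scaling adds 2.96 to every difference in smoke against naive and takes 2.48 and 4.02 from every one in EV and in MSC against smoke. It therefore turns each difference between -2.96 and 0 in the first comparison, and those between 0 and 2.48 or 4.02 in the others, whether or not this is repeated beside the gene. The slide position is confounded with the groups, since the arrays of a group share a column; the effects cannot be told apart. The 8 alveolar type 1 markers and the 7 measured alveolar type 2 markers were detected on all arrays, and no spot was saturated.

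In fibrillar collagens, the chains of types I, III and V form the fibrils of the airway, vessel and pleural wall, and those of types II and XI the fibrils of cartilage. Type IV chains form the sheet under epithelium and endothelium, which in the alveolus lies between air and blood. FACIT chains sit on the surface of fibrils, type VI forms beaded filaments, type VII anchors basement membranes to the stroma beneath, types XIII and XXIII span the cell membrane, and types XV and XVIII are collagens of the basement membrane zone. Chains are hydroxylated, glycosylated and folded in the endoplasmic reticulum, trimmed by proteinases after secretion and crosslinked by lysyl oxidases.

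The upstream sequences of 4 genes are shown because their readouts on the percentile scale span what follows. Col9a2 and Col7a1 were lower in smoke and higher in both treated groups, and Col13a1 was lower in the MSC group. Col1a2, the partner chain of Col1a1 in type I collagen, was not called on that scale. They are the 250 bases before the start site in RefSeq's table for GRCr8, 5′ to 3′ on the gene's strand, at chr5:139892548-139892797 (plus strand) for Col9a2, chr8:118483114-118483363 (plus strand) for Col7a1, chr20:30466801-30467050 (minus strand) for Col13a1 and chr4:33518307-33518556 (plus strand) for Col1a2. Capitals mark the TATA box letters TATAAA, the CCAAT box (by its name) and the GC box letters GGGCGG, each on either strand.
Col9a2: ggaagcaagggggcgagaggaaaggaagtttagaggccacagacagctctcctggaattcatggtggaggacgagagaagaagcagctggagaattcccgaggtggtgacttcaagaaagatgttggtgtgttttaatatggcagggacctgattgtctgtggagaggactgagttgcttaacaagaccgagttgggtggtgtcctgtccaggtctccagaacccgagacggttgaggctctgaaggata
Col7a1: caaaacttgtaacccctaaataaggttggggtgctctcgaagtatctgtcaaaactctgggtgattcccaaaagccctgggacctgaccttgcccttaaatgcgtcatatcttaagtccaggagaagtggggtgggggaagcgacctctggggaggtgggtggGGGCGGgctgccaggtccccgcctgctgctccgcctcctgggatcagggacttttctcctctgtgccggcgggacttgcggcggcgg
Col13a1: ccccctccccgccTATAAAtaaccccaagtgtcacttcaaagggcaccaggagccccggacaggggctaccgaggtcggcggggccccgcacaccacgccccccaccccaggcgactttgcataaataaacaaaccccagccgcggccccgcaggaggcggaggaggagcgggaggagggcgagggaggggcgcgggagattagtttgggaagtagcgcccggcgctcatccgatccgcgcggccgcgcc
Col1a2: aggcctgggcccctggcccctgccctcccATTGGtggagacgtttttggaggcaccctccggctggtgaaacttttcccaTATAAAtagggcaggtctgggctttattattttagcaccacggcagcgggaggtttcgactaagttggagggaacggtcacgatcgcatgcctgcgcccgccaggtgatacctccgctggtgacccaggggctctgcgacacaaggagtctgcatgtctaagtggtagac
The Col9a2 window held none of these letters, and the Col7a1 window held a GC box 87 bases before the start. The Col13a1 window held TATAAA 237 bases before the start. The Col1a2 window held CCAAT at 221 and TATAAA at 170 bases before the start. Of 33469 promoter windows of this length in the table, 12.9% held TATAAA, 34.0% CCAAT and 30.5% GGGCGG. The table held a promoter for 16 of the 21 measured collagen genes, of which 2, 4 and 9 held the respective letters. Their median GC content was 62.8%, against 51.2% over all windows. Col1a1, Col2a1, Col3a1, Col6a2 and Col14a1 had no entry.

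Smoke against naive asks how 12 weeks of smoke changed lung expression. Of the 21 collagen genes, 6 were lower in smoke and none was higher, at an adjusted p of 0.05 (limma, Benjamini-Hochberg over all features). Over all features 47.5% were called in this comparison, 35.4% lower and 12.1% higher. The collagen share of 28.6% is below this background by a margin that was not tested, and is not a result about these genes. The genes that fell were the cartilage chains Col2a1, Col11a2 and Col9a2, and Col1a1, Col7a1 and Col26a1. Their direction depends on the scale: with the spike-in controls all 6 were higher in smoke, and no collagen gene was called lower while 18 were called higher. The split was 3 higher and 3 lower with cyclic loess, 1 higher and 2 lower with quantile normalization, 1 and 4 with the 75th percentile taken over probes, and 0 and 10 with normexp. The median of the 21 genes was -0.12, against -0.62 over all features. Relative to that median, 12 collagen genes lay above and 9 below, and 15 and 6 with normexp. Both percentile scalings and the spike-in scaling move each array by a constant, so they give the same value relative to that median. Among the called genes, Col7a1 and Col1a1 lay at percentiles 28.2 and 31.6 of all differences, so many features fell further.

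**Figure D1:**
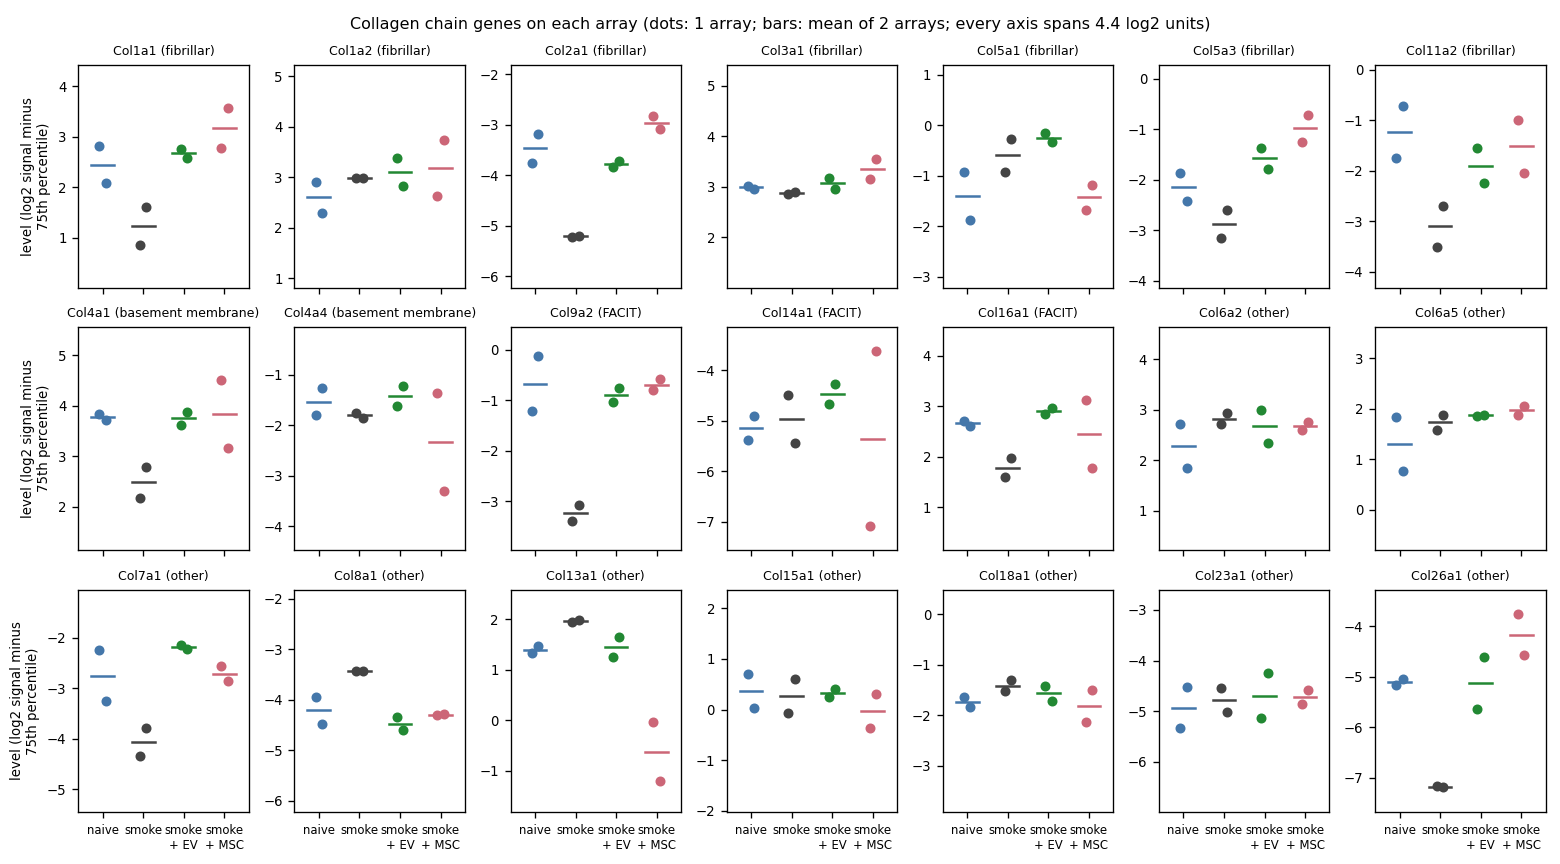
Level (log2 signal minus the array's 75th percentile) of the 21 measured collagen chain genes on each of 8 arrays, in 4 groups; dots are arrays and bars the mean of 2. Col9a2, Col2a1 and Col26a1 sit lowest on both smoke arrays, and Col13a1 lowest on both MSC arrays.

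Type I collagen has 2 kinds of chain, Col1a1 and Col1a2, and its readouts disagreed. Col1a1 stood at 2.81 and 2.08 in naive, 0.86 and 1.61 in smoke, 2.76 and 2.59 in EV and 2.77 and 3.57 in MSC. The smoke arrays were below all 6 others. Its level fell by 1.21 on the log2 scale in smoke (SE 0.42, adjusted p = 0.0484). Just below the threshold, this call was lost without any single naive, smoke or EV array (adjusted p 0.0502 to 0.264). It was also lost with quantile normalization (-0.76), cyclic loess (-0.60), the percentile over probes (-0.99), no filter on dim probes and a fit of the 2 groups (adjusted p 0.0602 to 0.303), and with the mean of both Col1a1 probes the difference was -0.17 (adjusted p = 0.772).

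The second Col1a1 probe, A_44_P238421, stood at 0.11 and 0.25 in naive, 0.99 and 1.09 in smoke, 0.40 and 0.01 in EV and -0.54 and 1.30 in MSC. It was thus higher on both smoke arrays, the opposite of the brighter probe, A_64_P040278, with a difference of 0.86 that did not pass (adjusted p = 0.222). Both probes carry the same RefSeq accession.

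Col1a2 stood at 2.91 and 2.29 in naive, 2.99 and 2.98 in smoke, 3.37 and 2.82 in EV and 2.63 and 3.74 in MSC. The smoke arrays lay within the spread of both treated groups. The smoke against naive difference was 0.39 (SE 0.44, adjusted p = 0.485). Col3a1, the single chain of type III collagen, stood at 3.02 and 2.96 in naive, 2.86 and 2.89 in smoke, 3.18 and 2.95 in EV and 3.16 and 3.55 in MSC. Its smoke against naive difference was -0.12 (SE 0.28, adjusted p = 0.748), and it was 0.10, 0.46, 0.57, 0.043 and 2.85 with the percentile over probes, quantile, cyclic loess, normexp and spike-in scalings.

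Type V chains regulate fibril diameter. Col5a3 stood at -1.86 and -2.42 in naive, -3.15 and -2.60 in smoke, -1.37 and -1.79 in EV and -1.25 and -0.72 in MSC. The smoke arrays were the lowest, and the difference from naive was -0.74 (SE 0.37, adjusted p = 0.130). Col5a1 stood at -0.92 and -1.87 in naive and -0.93 and -0.26 in smoke, a difference of 0.80 (adjusted p = 0.143). Its dimmer probe, A_64_P009097, stood at -3.71 and -5.88 in naive, -1.67 and -1.39 in smoke, -2.62 and -3.37 in EV and -5.32 and -3.91 in MSC. That probe was called higher in smoke, by 3.26 (adjusted p = 0.0107 in a fit of all kept probes), although it was well above background on only 1 naive array. The 2 Col5a1 probes carry different RefSeq accessions, XM_006233873 for the brighter and NM_134452 for the dimmer.

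Col2a1, the chain of type II collagen, was among the clearest readings. It stood at -3.76 and -3.18 in naive, -5.21 on both smoke arrays, -3.84 and -3.73 in EV and -2.83 and -3.08 in MSC. The smoke arrays were below all others, and the level fell by 1.74 in smoke (SE 0.30, adjusted p = 0.00425), a 3.34-fold lower level. With the spike-in controls it was 1.22 higher in smoke instead. Relative to the median of all features it lay between -1.18 and -0.85 in all 6 scalings.

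Col11a2 stood at -1.75 and -0.73 in naive, -3.50 and -2.69 in smoke, -1.56 and -2.25 in EV and -0.99 and -2.05 in MSC. Type XI collagen lies inside type II fibrils, and here too both smoke arrays were below all others. The level fell by 1.86 (SE 0.53, adjusted p = 0.0242). That call was lost without the second naive array (adjusted p = 0.127) or the first smoke array (adjusted p = 0.150), with the mean of its probes (adjusted p = 0.143), and with cyclic loess and quantile normalization (adjusted p = 0.0523 and 0.0576). The second probe of Col11a2 gave -0.52 (adjusted p = 0.642), and Col11a1 was above background on 0 of 8 arrays.

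Among FACIT chains, Col9a2 belongs to type IX collagen, which coats type II fibrils. It stood at -1.22 and -0.13 in naive, -3.39 and -3.08 in smoke, -1.03 and -0.76 in EV and -0.80 and -0.59 in MSC. The smoke arrays were below all others by a wide gap. The level fell by 2.56 (SE 0.39, adjusted p = 0.00312), or 5.91-fold, the largest drop among the collagen genes, and it was 0.40 higher with the spike-in controls. Relative to the median of all features it lay between -2.13 and -1.19 in all 6 scalings. The 2 probes of Col9a1 were above background on 4 and 0 arrays and were not kept. The other FACIT chains, Col14a1 and Col16a1, differed by 0.18 and -0.87 and were not called on the percentile scale (adjusted p = 0.891 and 0.132). Over the 6 scalings, Col14a1 was called in 2 and Col16a1 in 1. The dim Col14a1 probe was well above background on 6 arrays, missing 1 naive and 1 MSC array, and its levels of -7.09 and -3.62 on the MSC arrays lay on both sides of all others.

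Cartilage cell markers are given beside these 3 chains. Of the 11 chondrocyte markers listed, 5 were measured, and 2 of them, the transcription factor Sox9 and the cartilage matrix protein Matn1, fell in smoke, by 1.23 and 2.29 (adjusted p = 0.0135 and 0.00411); with the spike-in controls they were 1.73 and 0.68 higher. That is 2 of 5 lower, a share near the 35.4% of all features that were lower. The defining markers Acan, Hapln1, Matn3, Snorc, Cnmd and Ucma were not measured. The summed level of the 5 markers, on a linear scale relative to the 75th percentile, was 0.497 to 0.591 in naive, 0.289 to 0.331 in smoke, 0.494 to 0.522 in EV and 0.907 to 1.01 in MSC. Its part in the collagen results was not tested. In rats, airway cartilage is found mainly in the trachea and main bronchi.

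The basement membrane was represented by Col4a1 and Col4a4; their neighbours in the genome, Col4a2 and Col4a3, had no matched probe, nor did Col4a5 and Col4a6. Col4a1 stood at 3.83 and 3.71 in naive, 2.18 and 2.79 in smoke, 3.61 and 3.88 in EV and 4.52 and 3.16 in MSC. Both smoke arrays were below all others, with a difference of -1.28 that missed the threshold (SE 0.46, adjusted p = 0.0530). Col4a4, a chain of the mature alveolar and glomerular membrane, differed by -0.27 (adjusted p = 0.720).

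Among the other collagens, Col7a1, the chain of anchoring fibrils, stood at -2.25 and -3.25 in naive, -4.34 and -3.78 in smoke, -2.15 and -2.22 in EV and -2.56 and -2.85 in MSC. Its level fell by 1.31 in smoke (SE 0.39, adjusted p = 0.0286), and the call was lost without the first naive array (adjusted p = 0.129) or the first smoke array (adjusted p = 0.172). It was also lost with quantile normalization (-0.83, adjusted p = 0.155), cyclic loess (-0.92, adjusted p = 0.0915), the percentile over probes (adjusted p = 0.0683) and a fit of the 2 groups (adjusted p = 0.0549). Col26a1, a small collagen-like secreted protein, stood at -5.18 and -5.04 in naive, -7.17 and -7.19 in smoke, -5.65 and -4.62 in EV and -3.77 and -4.57 in MSC. The smoke arrays were again below all others, but the probe was well above background on only 1 naive and 1 smoke array. It was kept by the filter through the EV and MSC groups only. Its level fell by 2.08 (SE 0.42, adjusted p = 0.00719), and the call was lost with quantile normalization (-1.17, adjusted p = 0.0707). A second Col26a1 probe, above background on 1 naive and 1 smoke array only, was not kept. That probe stood at -5.87 and -6.88 in naive and -7.43 and -8.42 in smoke. On the EV arrays it stood at -7.89 and -6.59, overlapping smoke, and on the MSC arrays at -6.45 and -5.12.

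The remaining chains of this class did not pass the test. Col8a1, a short-chain collagen of vessel walls, stood at -3.93 and -4.48 in naive and -3.43 on both smoke arrays, a difference of 0.77 (SE 0.29, adjusted p = 0.0622). The membrane collagen Col13a1 stood at 1.34 and 1.46 in naive and 1.95 and 1.98 in smoke, a difference of 0.57 (adjusted p = 0.275). Col15a1 stood at 0.71 and 0.02 in naive and -0.06 and 0.60 in smoke, with a difference of -0.10 (adjusted p = 0.851). Col18a1, whose C-terminal fragment is endostatin, stood at -1.64 and -1.84 in naive and -1.53 and -1.30 in smoke, a difference of 0.33 (adjusted p = 0.415). The type VI chains Col6a2 and Col6a5 differed by 0.54 and 0.43, and Col23a1 by 0.16, none past the threshold (adjusted p = 0.264, 0.376 and 0.779).

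**Figure D2:**
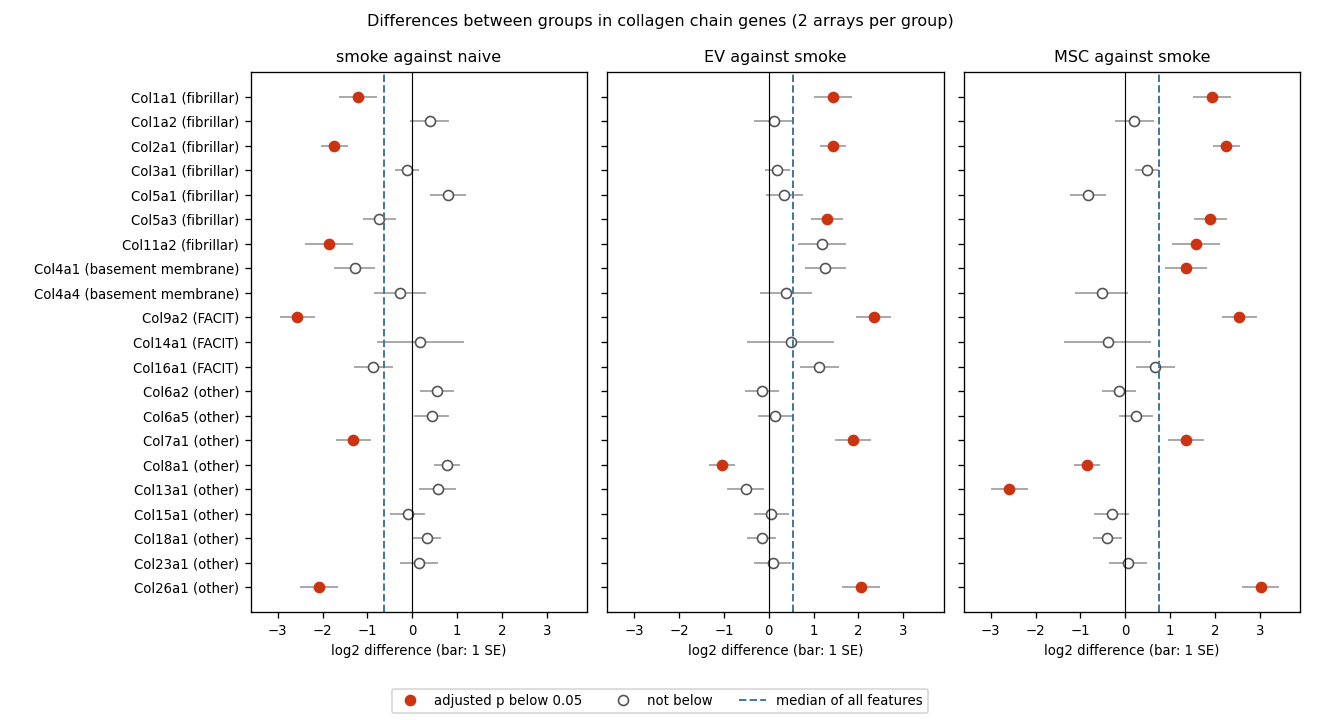
Log2 difference between groups on the 75th percentile scale for the 21 collagen chain genes, with 1 standard error, in 3 comparisons that share the 2 smoke arrays; filled points passed an adjusted p of 0.05 and the dashed line is the median of all features. Called genes number 6, 7 and 10. The called genes left of 0 are Col8a1 in EV against smoke, and Col8a1 and Col13a1 in MSC against smoke.

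EV against smoke asks what the vesicles changed in smoke-exposed lung. Of the 21 collagen genes, 6 were higher in the EV group and 1 was lower. Over all features 39.8% were called, 29.9% higher and 9.97% lower, so the collagen share of 33.3% is near the background and is not a result about these genes. The genes that rose were Col9a2, Col26a1, Col7a1, Col1a1, Col2a1 and Col5a3, and Col8a1 fell. With the spike-in controls 0 were called higher and 13 lower, and all 6 that rose were lower in the EV group. The other splits were 4 higher and 1 lower with the percentile over probes and with cyclic loess, 2 and 1 with quantile normalization, and 11 and 0 with normexp. The median of the 21 genes was 0.38, against 0.55 over all features.

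This comparison and the next both use the smoke arrays that also enter smoke against naive, so the same 2 arrays set the low side of each. Without the first smoke array 0 of the 21 genes were called in EV against smoke (limma, with adjusted p from 0.0531 for Col9a2 upward), against 6 without the second. The count was 3 without the first EV array and 1 without the second. In those 4 fits 7.44%, 27.5%, 21.6% and 9.05% of all features were called, so the count fell with that of the whole array.

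Among the cartilage chains, Col9a2 was 2.34 higher in EV than in smoke (SE 0.39, adjusted p = 0.00583), or 5.06-fold. Col2a1 was 1.43 higher (SE 0.30, adjusted p = 0.0105), a call lost with quantile normalization (0.83, adjusted p = 0.0636) and without the first smoke or second EV array (adjusted p = 0.0727 and 0.0762). Col11a2 was 1.19 higher without passing (SE 0.53, adjusted p = 0.109). Beside them Sox9 rose by 0.97 and Matn1 by 1.91, 2 of the 5 measured chondrocyte markers, while 29.9% of all features were called higher. The spike-in scaling gave -1.52 and -0.57 for these markers. Their part in the collagen differences was not tested.

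Col1a1 was 1.43 higher in EV (SE 0.42, adjusted p = 0.0320), and its second probe was 0.83 lower there, at a difference of -0.83 that did not pass (adjusted p = 0.251). The mean of both probes gave 0.30 (adjusted p = 0.612). The call was lost as well with quantile normalization, cyclic loess (0.91), the percentile over probes and no filter on dim probes, and without the first smoke array or either EV array (adjusted p 0.0587 to 0.201). Col1a2 and Col3a1 differed by 0.11 and 0.19 (SE 0.44 and 0.28, adjusted p = 0.856 and 0.596). Col5a3 was 1.30 higher (SE 0.37, adjusted p = 0.0274), and that call was lost in the same 7 settings (adjusted p 0.0560 to 0.177). Col5a1 differed by 0.35 (adjusted p = 0.515).

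Col7a1 rose by 1.88 (SE 0.39, adjusted p = 0.0106) and Col26a1 by 2.05 (SE 0.42, adjusted p = 0.00979). The Col26a1 probe passed the filter only through the EV and MSC groups, where it is higher, so the filter itself favours a rise. It was well above background on 1 of 2 smoke arrays. The Col7a1 call was lost without the first smoke array or either EV array (adjusted p 0.0501 to 0.0855). The Col26a1 call was lost with quantile normalization (1.21, adjusted p = 0.0755) and without the first smoke or second EV array (adjusted p = 0.0669 and 0.0710). Col8a1 stood at -4.34 and -4.60 on the EV arrays, below both smoke arrays, and fell by 1.04 (SE 0.29, adjusted p = 0.0280); with normexp the difference was 0.078, and the call was lost without any single smoke or EV array or without the filter on dim probes (adjusted p 0.0694 to 0.166). Col4a1 was 1.26 higher without passing (SE 0.46, adjusted p = 0.0628). Col15a1 and Col18a1 differed by 0.06 and -0.16 (adjusted p = 0.918 and 0.713). Col13a1 stood at 1.26 and 1.64 in EV, and its difference of -0.51 did not pass (adjusted p = 0.335). The uncalled Col4a4, Col6a2, Col6a5, Col14a1, Col16a1 and Col23a1 ran from -0.16 (Col6a2) to 1.12 (Col16a1).

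MSC against smoke asks the same of the cells. Of the 21 collagen genes, 8 were higher in the MSC group and 2 were lower. Over all features 59.7% were called, 43.3% higher and 16.4% lower. The collagen share of 47.6% is below this background by a margin that was not tested, and is not a result about these genes. The genes that rose were Col26a1, Col9a2, Col2a1, Col1a1, Col5a3, Col11a2, Col4a1 and Col7a1, and those that fell were Col13a1 and Col8a1. With the spike-in controls 20 were called lower and 0 higher, and all 8 that rose were lower in the MSC group. The other splits were 5 higher and 3 lower with the percentile over probes and with cyclic loess, 5 and 2 with quantile normalization, and 11 and 1 with normexp. The median was 0.24, against 0.74 over all features. Among the called genes, Col4a1 and Col7a1 lay at percentile 63.1 and Col11a2 at 67.4 of all differences, so many features rose further.

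The cartilage chains were again higher. Col2a1 was 2.25 higher in MSC (SE 0.30, adjusted p = 0.000704), or 4.77-fold, and Col9a2 2.54 higher (SE 0.39, adjusted p = 0.00132). Col11a2 was 1.58 higher (SE 0.53, adjusted p = 0.0342), a call lost with quantile normalization (1.05), cyclic loess, the percentile over probes and array weights, and without the first smoke or first MSC array (adjusted p 0.0541 to 0.187). Of the 5 chondrocyte markers 3 rose, to be read against the 43.3% of all features called higher. They were Matn1 by 2.78, Sox9 by 1.78 and Chad by 3.22. Each was lower in MSC with the spike-in controls, at -1.24, -2.24 and -0.80.

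Col1a1 rose by 1.93 (SE 0.42, adjusted p = 0.00594), but its second probe differed by -0.66 (adjusted p = 0.325) and spanned -0.54 to 1.30 on the MSC arrays. The mean of both probes gave 0.64 (adjusted p = 0.254). Col1a2 and Col3a1 differed by 0.20 and 0.48 (adjusted p = 0.714 and 0.166). Col5a3 rose by 1.89 (SE 0.37, adjusted p = 0.00339). Col5a1 differed by -0.83 (adjusted p = 0.116), while its dimmer probe was called lower, at -3.09 (adjusted p = 0.00874).

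**Figure D3:**
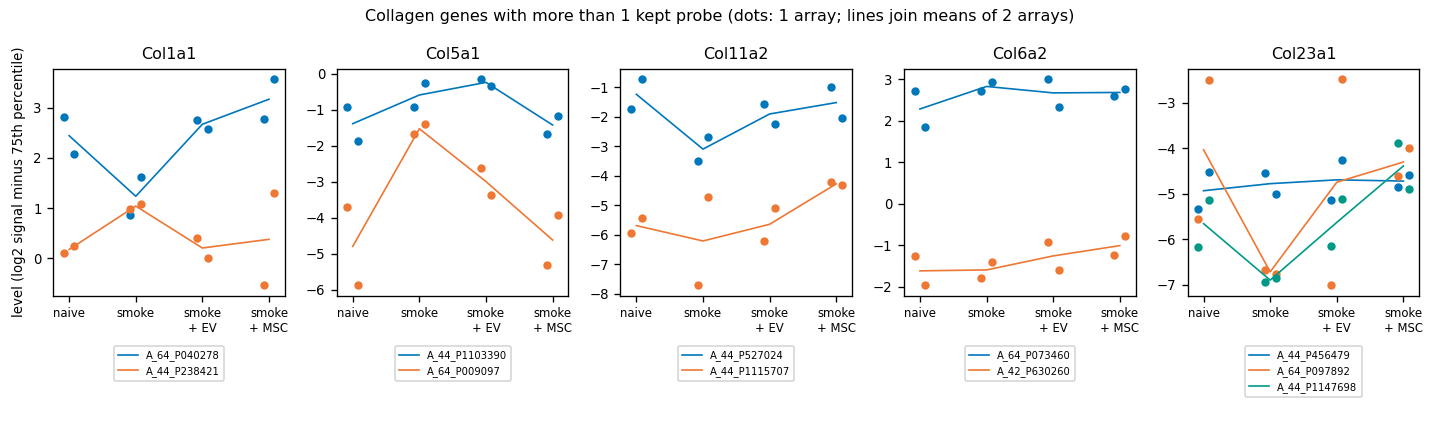
Level (log2 signal minus the array's 75th percentile) of each kept probe of the 5 collagen genes with more than 1, by group; dots are arrays and lines join means of 2 arrays. The 2 Col1a1 probes run opposite ways between naive and smoke, by -1.21 and 0.86, and the dimmer Col5a1 probe spans a wider range than the brighter.

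Col13a1 was the collagen gene with the largest drop in the MSC group. It stood at -0.03 and -1.21 on the MSC arrays, below all 6 other arrays, and fell by 2.59 against smoke (SE 0.41, adjusted p = 0.00140), or 6.00-fold. It was called lower in all 6 scalings. Relative to the median of all features it lay between -4.02 and -3.07. The type XIII chain spans the membrane at cell contacts.

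Col26a1 rose by 3.02 (SE 0.42, adjusted p = 0.000853) and Col7a1 by 1.35 (SE 0.39, adjusted p = 0.0196). The Col26a1 rise is again favoured by the filter, which its probe passed through the EV and MSC groups only. The Col7a1 call was lost with quantile normalization (0.62), cyclic loess (0.75) and the percentile over probes, and without the first smoke or first MSC array (adjusted p 0.0799 to 0.242). Col8a1 stood at -4.29 and -4.28 on the MSC arrays and fell by 0.86 (SE 0.29, adjusted p = 0.0371); with normexp it was 0.84 higher instead (adjusted p = 0.00691), and the call was lost without any single smoke, EV or MSC array (adjusted p 0.0644 to 0.130). It was also lost without the filter on dim probes, in a fit of the 2 groups, with array weights and with a trended and robust prior (adjusted p 0.0527 to 0.0598). Col4a1 rose by 1.35 (SE 0.46, adjusted p = 0.0364), with the MSC arrays 1.36 apart at 4.52 and 3.16, and the call was lost without any single array except the second MSC array (adjusted p 0.0517 to 0.188). It was lost too with quantile normalization (0.58), cyclic loess (0.57), the percentile over probes (0.96), no filter on dim probes and a fit of the 2 groups (adjusted p 0.0525 to 0.240). Col15a1 and Col18a1 differed by -0.30 and -0.40 (adjusted p = 0.529 and 0.308). The same uncalled 6 genes as in EV ran from -0.52 (Col4a4) to 0.66 (Col16a1). Another, dim probe of Col23a1 (A_44_P1147698), above background on 0 of 2 naive and 1 of 2 smoke arrays, was 2.51 higher in MSC (adjusted p = 0.00466), while the brightest probe differed by 0.06.

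The treatments were also compared with each other and with naive. In EV against MSC, 1 of the 21 genes was called, Col13a1, which was 2.07 higher in EV (SE 0.41, adjusted p = 0.0390), or 4.20-fold. Over all features 7.14% were called, 1.8% higher and 5.34% lower. That call was lost with array weights, without the filter on dim probes, in a fit of these 2 groups alone and without either smoke array, either EV array or the second MSC array (adjusted p 0.0575 to 0.236). Differences of the other 20 genes ran from -0.96 (Col26a1) to 1.18 (Col5a1). In EV against naive none of the 21 genes was called by limma, and 1 had an unadjusted p below 0.05; 0% of all features were called. In MSC against naive none was called, and 2 had an unadjusted p below 0.05, against 0.00398% of all features called, which is 1 feature. Col13a1 was 2.02 lower in MSC than in naive, at a difference of -2.02 (adjusted p = 0.0988), and both MSC arrays were below both naive arrays. The 6 genes that fell in smoke differed between EV and naive by -0.67 (Col11a2) to 0.56 (Col7a1) and between MSC and naive by -0.28 (Col11a2) to 0.94 (Col26a1), none past the threshold, which does not show that they are alike.

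**Figure D4:**
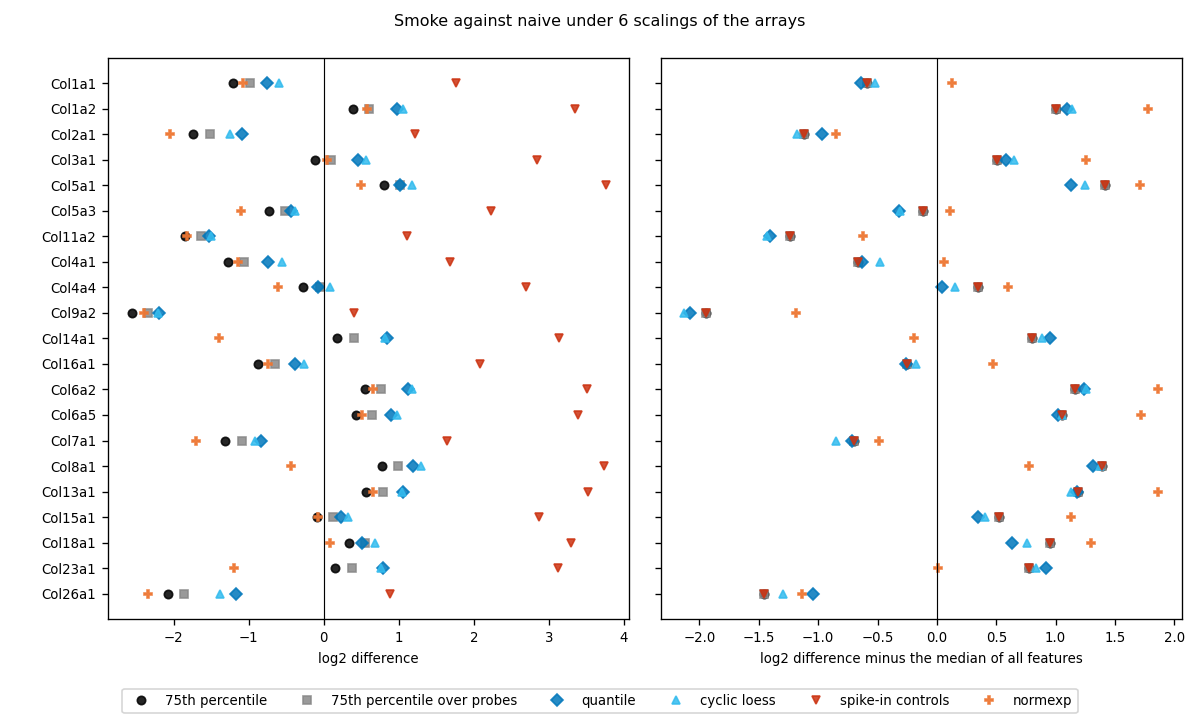
Smoke against naive difference of the 21 collagen chain genes under 6 scalings of the arrays, as the log2 difference (left) and as that difference minus the median of all features (right). Every gene lies above 0 on the left with the spike-in controls, while on the right Col9a2, Col26a1, Col11a2, Col2a1 and Col7a1 lie below 0 in all 6. On the right, both percentile scalings and the spike-in scaling coincide by construction.

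The median of all features gives a reference that moves with the scaling. Both percentile scalings and the spike-in scaling give the same value against it by construction, so agreement among them is no added support. In smoke against naive Col9a2, Col26a1, Col11a2, Col2a1 and Col7a1 lay below that median in all 6 scalings. Col13a1, Col15a1, Col18a1, Col1a2, Col23a1, Col3a1, Col4a4, Col5a1, Col6a2, Col6a5 and Col8a1 lay above it in all 6, though Col23a1 and Col4a4 by as little as 0.012 and 0.04. Col1a1 lay 0.59 below it at the 75th percentile and 0.13 above it with normexp.

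The proteins that make, trim and crosslink collagen chains were read from lists of known members. Counts in each list are read against the shares of all features called on the percentile scale. These were 12.1% higher and 35.4% lower in smoke, 29.9% and 9.97% in EV against smoke, and 43.3% and 16.4% in MSC against smoke. Of 18 measured genes of collagen folding and modification, 11 were higher in smoke and 1 was lower: P4ha2, P4hb, P3h3, Crtap, Ppib, Plod3, Colgalt1, Serpinh1, Fkbp10, Fkbp14 and Sec13 rose and P3h4 fell. These genes encode prolyl and lysyl hydroxylases and their partners, a collagen galactosyltransferase, the chaperone Hsp47 (Serpinh1) and a coat protein of export vesicles (Sec13). The list's median was 1.2, against -0.62 over all features and -0.12 for the chains. With normexp 8 were higher and 3 lower, with a median of 0.066 against -1.21 over all features. All 18 genes were well above background on both smoke arrays, against 15 on both naive, 17 on both EV and 14 on both MSC arrays. Fkbp10, a prolyl isomerase, was at least 4.97-fold higher in smoke, as its probe was well above background on the 2 smoke arrays only. Its probe passed the filter through the smoke group alone, so the filter itself favours this rise and a fall in the treated groups. With normexp the Fkbp10 difference was -0.17.

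In EV against smoke 6 genes of this list fell and 1 rose, and in MSC against smoke 11 fell and 1 rose. With normexp the list was split, 4 higher and 5 lower in EV and 6 higher and 8 lower in MSC. Fkbp10 was at least 6.34-fold lower in EV, a fall that the filter favours. Colgalt1, the galactosyltransferase, stood at -2.67 and -2.50 in naive, 0.06 and -0.16 in smoke, -1.62 and -2.21 in EV and -3.14 and -2.89 in MSC. Its smoke arrays were above all others, the opposite of Col9a2 and Col2a1, and it fell by 2.97 in MSC (SE 0.31, adjusted p = 0.000308). With the spike-in controls 18 of the 18 genes were called higher in smoke. P3h4 moved the other way from the list in all 3 comparisons, at -1.2, 1.27 and 1.87, differences whose sign the spike-in scaling turns.

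Crosslinking genes had 2 of 5 measured members higher in smoke, Loxl1 and Loxl2. Loxl1, a lysyl oxidase of elastic fibres, stood at -3.31 and -4.24 in naive, 0.05 and -0.79 in smoke, -3.08 and -3.81 in EV and -4.07 and -3.13 in MSC. It was 3.41 higher in smoke (SE 0.51, adjusted p = 0.00295), and its sign held in all 6 scalings in the 3 comparisons. It fell by 3.08 in EV and by 3.23 in MSC. In EV against smoke it was the only called gene of the 5, and in MSC against smoke 4 fell, Loxl1, Loxl2, Loxl4 and Pxdn. Lox itself was not measured.

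Of 4 measured procollagen processing genes, Bmp1 and Tll1 fell in smoke. Tll1, a proteinase related to Bmp1 that trims procollagen, stood at -0.16 and 0.11 in naive, -2.71 and -2.33 in smoke, -0.28 and 0.02 in EV and 1.19 and 0.68 in MSC. Its level fell by 2.49 in smoke and rose by 2.39 in EV and 3.45 in MSC, while the spike-in scaling gave 0.47, -0.09 and -0.57. Bmp1 rose in EV and Tll2 in MSC, so 2 of 4 were called higher in each. With 35.4% of all features lower in smoke and 29.9% and 43.3% higher in EV and MSC, such counts are not a result about the list.

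Among 6 measured collagen receptors, Ddr1, a receptor tyrosine kinase of epithelium that binds collagen, stood at -2.41 and -2.24 in naive, -6.49 and -5.19 in smoke, -2.73 and -2.27 in EV and -1.12 and -1.28 in MSC. Its smoke arrays were below all others, with differences of -3.51 in smoke, 3.34 in EV and 4.64 in MSC (adjusted p = 0.00223, 0.00413 and 0.000253). The sign of each held in all 6 scalings. The integrin chains Itga1 and Itgb1 also fell in smoke, and Mrc1, an uptake receptor of macrophages, rose. In EV 1 of the 6 rose and 1 fell, and in MSC 3 rose and 2 fell, the rises in MSC being near the 43.3% of all features.

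The genes of collagen degradation moved both ways. In smoke 4 of 14 rose, Mmp8, Ctsl, Timp1 and Timp3, and 3 fell, Mmp14, Mmp15 and Ctsb. Mmp8, neutrophil collagenase, was at least 1.01-fold higher in smoke, being above background on the 2 smoke arrays only. Its probe thus passed the filter through the smoke group only, and the filter itself favours this rise. With normexp Mmp8 was called the other way, at -1.48 (adjusted p = 0.000356). Ctsl, a lysosomal proteinase, stood at 1.04 and 0.55 in naive, 2.48 and 2.30 in smoke, 1.11 and 0.78 in EV and 0.50 and -0.01 in MSC. It fell by 1.44 in EV and by 2.14 in MSC, with the same sign in all 6 scalings. In EV 3 of the 14 rose and 2 fell, and in MSC 4 rose and 2 fell, but the balance depends on the scaling. In EV it was 0 higher and 5 lower with cyclic loess and 8 and 3 with normexp. In MSC it was 2 and 7 with the percentile over probes and with cyclic loess, 2 and 6 with quantile normalization and 9 and 3 with normexp. In smoke it was 6 and 0 with cyclic loess and 3 and 8 with normexp.

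Of 11 fibril-associated proteoglycans and glycoproteins, Sparc rose in smoke and Podn fell. Sparc, a collagen-binding matrix protein, stood at 3.14 and 2.75 in naive, 5.48 and 5.0 in smoke, 3.48 and 2.86 in EV and 3.06 and 2.22 in MSC, and rose by 2.30 in smoke (SE 0.40, adjusted p = 0.00436). In EV 1 of the 11 rose and 2 fell, and lumican (Lum) was at least 1.44-fold lower there, but 0.92 higher with normexp (adjusted p = 0.0188). In MSC 3 rose and 2 fell, against 0 and 2 with the percentile over probes, 1 and 4 with quantile normalization and with cyclic loess, and 6 and 2 with normexp. In EV normexp gave 6 higher and 3 lower, and in smoke 3 and 5. In MSC osteoglycin (Ogn) fell by 3.48 (SE 0.68, adjusted p = 0.00359). Of 9 partners of type IV collagen in the basement membrane, the laminin chains Lama4 and Lamb2 and nidogen 2 (Nid2) rose in smoke and none fell, beside the -1.28 of Col4a1. Nid2 was 2.66 higher in smoke, with its probe well above background on the 2 smoke arrays, 1 naive and 1 EV array, and with normexp the difference was -0.31. The Nid2 probe passed the filter through the smoke group only, so the filter itself favours this rise and its falls in EV and MSC. In EV 2 of the 9 fell, and in MSC 6 fell, Nid2 by at least 3.77-fold, and 1 rose; with normexp Nid2 was 0.85 higher in MSC instead (adjusted p = 0.00981).

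**Figure D5:**
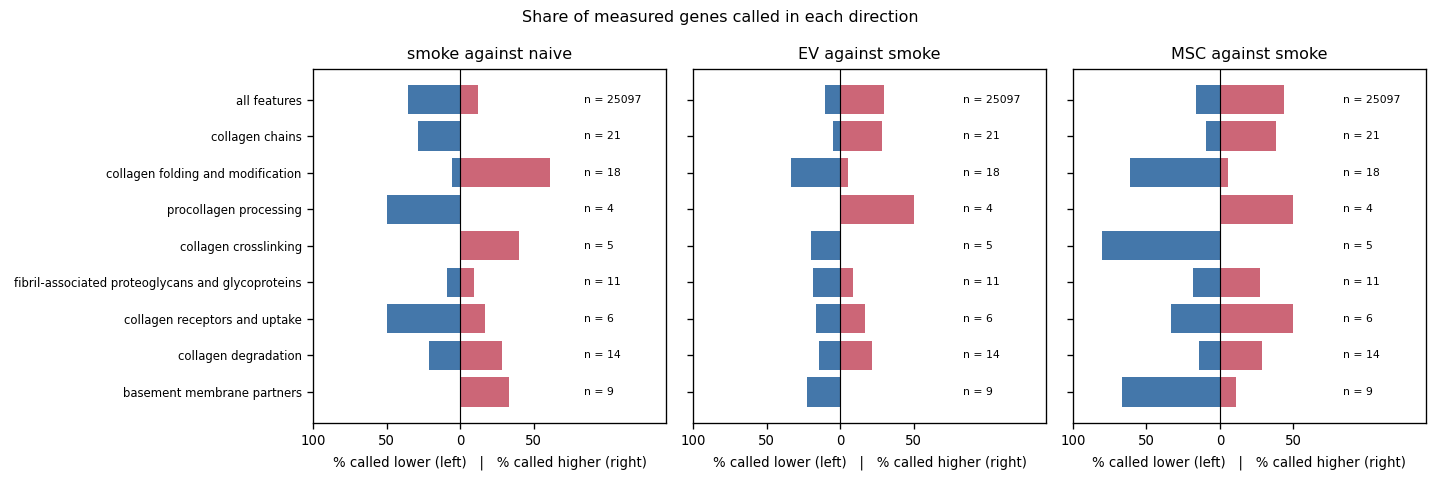
Percent of measured genes called higher (right of 0) or lower (left of 0) on the 75th percentile scale among all 25097 features, the 21 collagen chains and 7 lists of genes that act on collagen, in 3 comparisons. In smoke against naive 11 of 18 folding genes were higher and 1 lower, against 0 and 6 of the 21 chains. The 11 include Fkbp10, whose probe passed the filter through the smoke group only. With the spike-in controls, where 83.2% of all features were called, 18 of 18 and 18 of 21 were higher.

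With the spike-in controls the called genes of all 7 lists lay on 1 side: in smoke 18 of 18, 3 of 4, 5 of 5, 4 of 6, 14 of 14, 11 of 11 and 9 of 9 were higher, and none lower, in the order of folding, processing, crosslinking, receptors, degradation, proteoglycans and basement membrane partners. In EV 17, 3, 5, 4, 12, 9 and 9 of these were lower and none higher, and in MSC 18, 3, 5, 5, 14, 11 and 9 were lower and none higher. On that scale 83.2%, 74% and 88.7% of all features were called in the 3 comparisons, nearly all of them on the same side as the lists, so these counts are not a result about the lists.

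Markers of other lung cells are read against the 12.1% of all features that were higher and the 35.4% that were lower in smoke. In smoke against naive 1 of 10 lung fibroblast markers rose and 1 fell, 2 of 8 smooth muscle markers rose and 1 fell, 2 of 8 endothelial markers rose and 2 fell, 1 of 5 mesothelial markers rose and 1 fell, 2 of 5 markers of bone and skeletal muscle fell, 3 of 7 alveolar type 2 markers fell and 1 of 8 alveolar type 1 markers fell. None of the last 3 lists had a marker that rose. In EV against smoke the counts of higher and lower were 2 and 2, 1 and 2, 1 and 2, 1 and 1, 2 and 0, 2 and 0, and 0 and 0 in that order. In MSC against smoke they were 2 and 3, 4 and 1, 3 and 3, 1 and 2, 2 and 0, 2 and 2, and 1 and 1. Of all features, 29.9% were higher and 9.97% lower in EV, and 43.3% and 16.4% in MSC. The summed level of the fibroblast markers relative to the 75th percentile was 11.4 to 14.8 in naive, 10.3 to 11.7 in smoke, 15.6 to 18.2 in EV and 14.1 to 20.4 in MSC. Their part in the collagen differences was not tested.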

How the data were processed

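The 8 arrays carry Cy3-labelled cDNA from total RNA of rat lung, per the labels. The deposited files hold intensity values per spot from Agilent Feature Extraction 10.7.3.1 (array design 074036), per the file headers, that is the background-subtracted processed signal, the median spot and background signals, and other values per spot in the deposited files, which are flags. What else the authors did is not stated there.

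Spots of a probe were averaged without outlier spots, and the log2 signal was computed from the deposited intensity minus each array's 75th percentile. Of 45598 probes 29612 were kept; a gene was represented by its brightest kept probe. Names came from RefSeq accessions matched to a gene table of GRCr8 (21215 probes matched). Between 48.2% and 71.4% of probes were well above background on an array, and the number of arrays limits the precision. The 4 group means were fitted over 8 arrays with limma 3.58.1 in R 4.3.3 (4 residual degrees of freedom, prior 3.57), with Benjamini-Hochberg adjustment at 0.05 per comparison; all tests are 2-sided. Where a probe was above background on neither array of a group, the fold is a lower bound, taken on each array against its own signal or, if higher, the dimmest signal marked well above background. It holds on the percentile scale only. Figures used Python 3.11.15 and matplotlib 3.10.9, and tables with the R packages data.table (version 1.17.8) and jsonlite (2.0.0). The fit was tested on simulated data.

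Members and lists were chosen with earlier results of these data known. Named were, in the 3 comparisons with the smoke group, every called collagen gene whose groups did not overlap plus Col1a1, Col1a2, Col3a1, Col4a1, Col15a1 and Col18a1 whatever their values (Col4a2 and Col6a1 had no matched probe), and the called gene of largest difference in each pathway list; other called list genes were named after their values were seen. Alternatives were normexp (offset 50), quantile, cyclic loess and spike-in scaling (7 of 10 controls), filters, probe rules, other fits and each array left out; the 75th percentile over probes was added after seeing the data. Deviations of same-numbered samples from their group means correlated weakly between groups (-0.15 to 0.14). With so few samples per group, these correlations cannot decide whether same-numbered samples were paired.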

Additional observations from a re-analysis of the deposited data

How the results depend on the processing

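The spike-in scaling changed the most: collagen genes called numbered 18 (smoke against naive), 13 (EV against smoke), 20 (MSC against smoke), 10 (EV against MSC) and 1 (MSC against naive), beside 83.2%, 74%, 88.7%, 40.7% and 6.57% of all features. It turned the sign in smoke against naive of Col9a2 (0.40), Col26a1 (0.89), Col11a2 (1.10), Col2a1 (1.22), Col7a1 (1.65), Col4a1 (1.68), Col1a1 (1.76), Col16a1 (2.09), Col5a3 (2.23), Col4a4 (2.69), Col3a1 (2.85) and Col15a1 (2.86). In EV against smoke it turned Col9a2 (-0.14), Col26a1 (-0.43), Col7a1 (-0.61), Col1a1 and Col2a1 (both -1.05), Col5a3 (-1.19), Col4a1 (-1.22), Col11a2 (-1.29), Col16a1 (-1.36), Col14a1 (-1.99), Col4a4 (-2.10), Col5a1 (-2.13), Col3a1 (-2.29), Col6a5 (-2.34), Col1a2 (-2.38), Col23a1 (-2.40) and Col15a1 (-2.43). In MSC against smoke it turned Col26a1 (-1.0), Col9a2 (-1.48), Col2a1 (-1.77), Col1a1 (-2.09), Col5a3 (-2.13), Col11a2 (-2.44), Col4a1 and Col7a1 (both -2.67), Col16a1 (-3.36), Col3a1 (-3.54), Col6a5 (-3.78), Col1a2 (-3.82) and Col23a1 (-3.96). This scaling moves every gene of an array by the same amount.

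Normexp gave 10, 11, 6 and 1 called genes in smoke against naive, EV against smoke, EV against MSC and MSC against naive, beside 73.8%, 68.6%, 50.4% and 1.22% of all features. It turned Col8a1 in smoke against naive (-0.44), EV (0.078) and MSC (0.84), Col14a1 in smoke against naive (-1.40) and MSC (2.00), Col23a1 in smoke against naive (-1.2), Col4a4 in MSC (0.46), Col1a2 in EV (-0.073) and MSC (-0.079), Col18a1 in MSC (0.033) and Col3a1 in smoke against naive (0.043). Quantile normalization gave 3 called genes in smoke against naive and 3 in EV against smoke. It turned Col15a1 (0.23 in smoke against naive, -0.20 in EV), Col3a1 (0.46, -0.29 and -0.30 in smoke, EV and MSC) and Col1a2 (-0.37 in EV, -0.57 in MSC). Cyclic loess turned the same differences, Col15a1 (0.33, -0.32), Col3a1 (0.57, -0.39, -0.25) and Col1a2 (-0.47, -0.52), and the percentile over probes turned Col15a1 (0.12, -0.10), Col3a1 (0.10 in smoke) and Col1a2 (-0.045, -0.20). At least 1 of these 3 also turned Col23a1 and Col6a5 in EV and MSC, Col14a1 in EV and Col4a4 in smoke against naive. None of these differences was past the threshold on the main scale except those of Col8a1 in EV and MSC. Without the filter on dim probes, 4 genes were called in EV against smoke and 0 in EV against MSC; the latter was also 0 in a fit of those 2 groups and with array weights. The causes were not tested.

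With each array left out in turn, the called genes numbered 3 to 8 (smoke against naive), 0 to 9 (EV against smoke), 6 to 11 (MSC against smoke), 0 to 1 (EV against MSC), 0 to 0 (EV against naive) and 0 to 1 (MSC against naive). Among the genes named by the rule above, the sign turned over these fits in uncalled differences only. Col15a1 ran from -0.44 to 0.24 in smoke against naive, -0.28 to 0.39 in EV and -0.63 to 0.031 in MSC. Col1a2 ran from -0.17 to 0.38 in EV and -0.36 to 0.75 in MSC. Other collagen genes were not followed in these fits and can turn as well. For example, Col14a1 and Col4a4 each had 1 MSC array above the smoke mean (-3.62 against -4.96, and -1.36 against -1.81) and 1 below it. With 1 array left in an arm, its spread is taken from the remaining groups. The fit with the replicate number as a block called 5, 7, 10, 1, 0 and 0 genes in the 6 comparisons, and only Col1a1 in smoke against naive changed its call (adjusted p = 0.0609). In smoke against naive Col2a1 and Col9a2 kept their calls in all alternatives run except the spike-in scaling.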
